A study of Homo sapiens with 8 samples.

Results

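Loci transcribed from the minus strand within IGF1R were measured in 2 human liver cancer cell lines, and the 3 of them described here are LXLOC_019865, LXLOC_019866 and ENSG00000259621. They were picked by these identifiers out of 15469 loci with values, because of how they changed with JQ1 in these same libraries. Their JQ1 and vehicle values are therefore a description, given with no test. ENSG00000259621 is an antisense gene of GENCODE 29, and names beginning with LXLOC are the authors' own. The intervals overlap on 1 strand, so the 3 are treated as 1 locus and not as repeats of a finding.

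The lines were HepG2 and LM3, both labelled as hepatocellular carcinoma, the common primary cancer of hepatocytes. JQ1 inhibits the BET proteins, a family of readers of acetylated histones, and so reduces transcription at many enhancer-rich genes. Each line had 2 libraries with the DMSO vehicle and 2 with JQ1, 8 in all, from total RNA without its ribosomal part. The labels give no dose or time of JQ1, no genetic change in any group, and nothing that says the replicates came from separate cultures, so the spread between them may be technical. Values are FPKM, fragment numbers relative to the length of a transcript and the size of its library, in 1 table per line.

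IGF1R encodes the receptor tyrosine kinase for insulin-like growth factors, which signals through PI3K and AKT and through RAS and MAP kinases to favour growth and survival. Insulin-like growth factor signalling is well known in liver cancer. Antisense transcripts are RNAs made from the strand opposite a coding gene. Some of them act on the gene they face and many have no known function. No function is given here for these loci.

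The annotated transcript of the locus, ENST00000558736, is shown because its 5′ end is also that of LXLOC_019865. It is 263 bases long, and the capitals mark its first exon of 69 bases (chr15:98893467-98893535, minus strand of GRCh38). The lower-case remainder is its second exon of 194 bases (chr15:98880659-98880852). The sequence is that of GENCODE 29, written 5′ to 3′.
ENST00000558736: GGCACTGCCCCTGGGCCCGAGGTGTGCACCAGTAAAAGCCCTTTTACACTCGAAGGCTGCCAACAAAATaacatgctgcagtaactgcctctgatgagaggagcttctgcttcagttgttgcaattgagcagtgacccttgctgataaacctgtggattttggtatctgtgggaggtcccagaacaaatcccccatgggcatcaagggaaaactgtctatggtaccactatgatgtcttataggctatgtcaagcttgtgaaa

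Spliced, this RNA covers 2.04% of its span. Its GC content was 48.7%, with 56.5% in the first exon and 45.9% in the second. Neither exon faces an exon of IGF1R in the 1 transcript model, of 21 exons, that gives all IGF1R exon numbers here. Other IGF1R transcripts were not compared. The first lies between IGF1R exons 3 and 4 and the second between exons 2 and 3.

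ENSG00000259621 runs from 98880659 to 98893535 on chromosome 15 (minus strand, GRCh38), a span of 12877 bp. LXLOC_019865 runs from 98883571 to 98893535, takes up 77.4% of that span and has the same 5′ end. That end lies 245 kb inside IGF1R (98648539 to 98964530, plus strand) and 1898 bp beyond its exon 3. The intervals of both loci face exon 3 of IGF1R, a coding exon of 313 bp, though where the exons of LXLOC_019865 itself lie is not known here. LXLOC_019866 runs from 98884751 to 98885367, 617 bp, wholly inside the other 2 intervals and opposite the intron between exons 2 and 3.

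**Figure D1:**
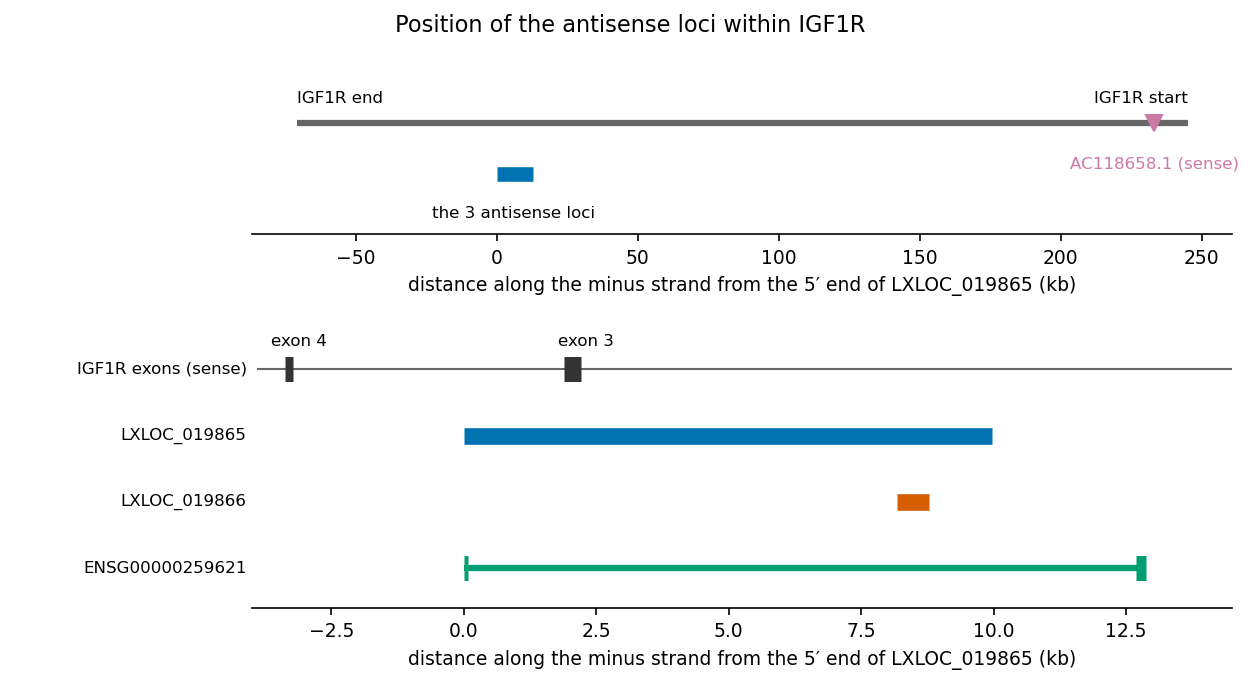
Position of the 3 antisense loci within IGF1R. The x axis is the distance in kb along the minus strand from the 5′ end of LXLOC_019865, for all of IGF1R above and for the antisense loci below; thick boxes on the ENSG00000259621 line are its 2 exons. LXLOC_019865 and ENSG00000259621 begin at the same point and span exon 3 of IGF1R, and LXLOC_019866 lies inside both.

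LXLOC_019865 was far lower with JQ1 in both lines. It had the highest mean of the 3 in each group except HepG2 with JQ1, where it had the lowest. In LM3 it was at 4.67 and 4.68 FPKM in the vehicle libraries and at 0.32 and 0.31 FPKM in the JQ1 libraries. The JQ1 libraries thus kept 6.74% of the vehicle mean, 4.68 ± 0.00707 against 0.315 ± 0.00707 FPKM (mean ± SD, n = 2 per group, as for all means that follow). In HepG2 it was at 1.30 and 1.28 FPKM with vehicle and at 0.18 and 0.16 FPKM with JQ1, 13.2% of the vehicle mean (1.29 ± 0.0141 against 0.17 ± 0.0141 FPKM). The 2 vehicle libraries stood well above the 2 JQ1 libraries in each line, and replicates differed by at most 0.02 FPKM. On the scale used for all loci, log2(FPKM + 0.5), the difference was -2.67 (SE 0.085) in LM3 and -1.42 (SE 0.098) in HepG2. This scale understates the change of low loci, since the plain ratio of means was 14.8-fold in LM3 and 7.59-fold in HepG2. In RNA of whole cultures, fewer cells with a transcript and less of it per cell cannot be told apart.

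LXLOC_019866, the short locus inside the intron, was a little below LXLOC_019865 in every LM3 library. It was at 3.77 and 3.54 FPKM with vehicle and at 0.22 and 0.24 FPKM with JQ1, 6.29% of the vehicle mean. The log2 difference was -2.51 (SE 0.093). In HepG2 it was at 0.58 and 0.94 FPKM with vehicle and at 0.23 and 0.20 FPKM with JQ1, 28.3% of the vehicle mean. The HepG2 groups did not overlap, but the vehicle libraries differed by more among themselves (SD 0.255) than those of LXLOC_019865 did.

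ENSG00000259621, the annotated 2-exon transcript, had the lowest mean of the 3 in each group except HepG2 with JQ1. In LM3 it was at 0.83 and 0.66 FPKM with vehicle, and with JQ1 it was listed at 0 in replicate 1 and at 0.11 FPKM in replicate 2. The groups did not overlap, and the log2 difference was -1.17. In HepG2 it was listed at 0 and at 0.27 FPKM with vehicle and was at 0.24 and 0.12 FPKM with JQ1. These HepG2 groups overlapped, so no direction can be read from them.

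**Figure D2:**
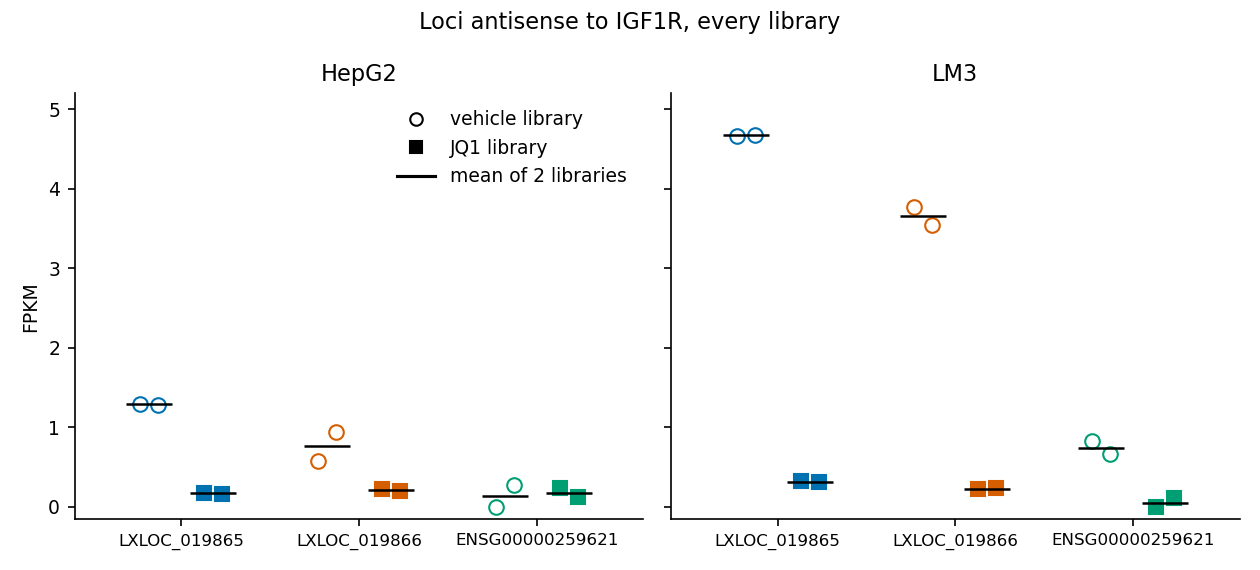
FPKM of the 3 antisense loci in every library (y axis), HepG2 at the left and LM3 at the right. Open circles are vehicle libraries, filled squares JQ1 libraries and bars the mean of 2. Vehicle and JQ1 libraries separate for all 3 loci in LM3 and for the 2 LXLOC loci in HepG2, while ENSG00000259621 overlaps in HepG2.

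Both JQ1 libraries lay below both vehicle libraries for 3 of the 3 loci in LM3 and for 2 of the 3 in HepG2. Over all 15469 loci with values the same held for 28.0% in LM3 and 24.4% in HepG2, and since the loci were picked by this contrast nothing is read from their counts. Reads may have been counted in more than 1 of the overlapping intervals. No source used here says whether counting used strand, and without it reads of IGF1R RNA and of RNA antisense to it cannot be told apart in these intervals.

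The fit over all loci took in those whose mean in a line's 4 libraries reached 0.5 FPKM. LXLOC_019865 passed in both lines and LXLOC_019866 in LM3 alone, with a mean of 0.488 FPKM in HepG2, just under the limit. ENSG00000259621, at means of 0.158 and 0.40 FPKM in HepG2 and LM3, passed in neither. The 2 LXLOC loci passed only through their vehicle libraries. With JQ1 LXLOC_019865 had means of 0.315 FPKM in LM3 and 0.17 FPKM in HepG2, and LXLOC_019866 had 0.23 FPKM in LM3. As a description, LXLOC_019865 and LXLOC_019866 had the lowest and second lowest log2 change of 6474 loci in LM3, and LXLOC_019865 had the 31st lowest of 5906 in HepG2. Of 5035 loci that passed in both lines, 24 had a log2 change as low as that of LXLOC_019865 or lower in HepG2, itself included. No other locus did so in both lines. The loci were picked by this same contrast, so these ranks restate that choice and nothing is read from them.

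**Figure D3:**
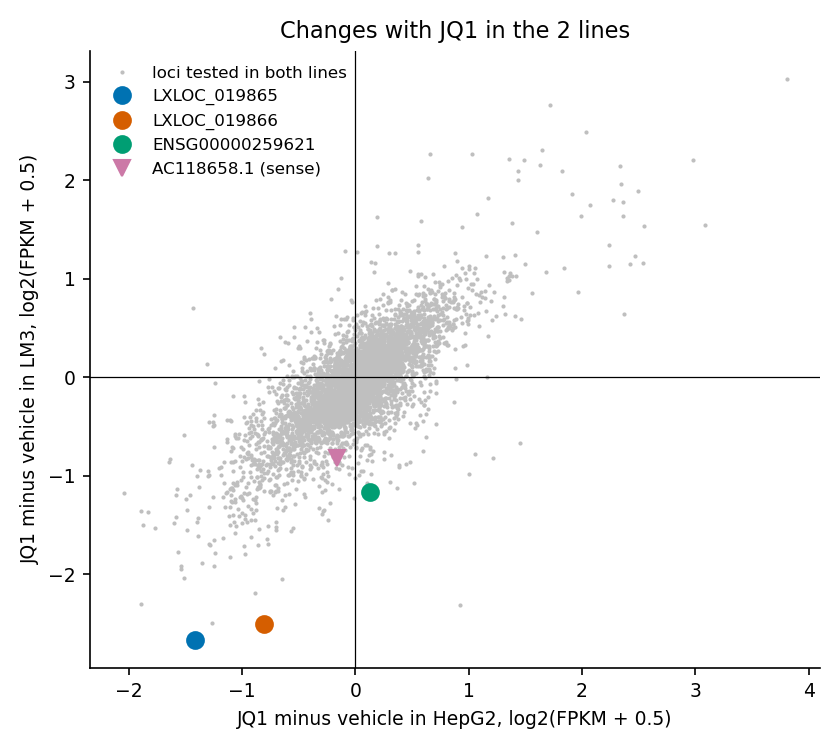
Log2(FPKM + 0.5) difference of JQ1 minus vehicle in HepG2 (x axis) and LM3 (y axis). Grey points are the 5035 loci that passed the filter in both lines, large circles the 3 antisense loci, whether or not they passed, and the triangle AC118658.1, a sense locus within IGF1R. LXLOC_019865 sits at -1.42 and -2.67, with no other point both as far left and as far down, and ENSG00000259621 sits near 0 on the HepG2 axis. The antisense loci were picked by this contrast, so nothing is read from their place.

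Vehicle levels of the locus were higher in the LM3 table than in the HepG2 table, 3.62-fold for LXLOC_019865, 4.81-fold for LXLOC_019866 and 5.52-fold for ENSG00000259621. The tables may have been scaled separately, so these ratios were not tested. In order of level, LXLOC_019865 was highest in LM3 with vehicle, then in HepG2 with vehicle, in LM3 with JQ1 and in HepG2 with JQ1, with no overlap between neighbours in that order. For LXLOC_019866 the JQ1 libraries of LM3 (0.22 and 0.24 FPKM) and of HepG2 (0.23 and 0.20 FPKM) overlapped at the bottom of the order. For ENSG00000259621 only the LM3 vehicle libraries stood apart, and the other 3 groups overlapped between 0 and 0.27 FPKM.

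Among all loci with values, the vehicle mean of LXLOC_019865 stood at percentile 94.0 in LM3 and 82.3 in HepG2. With JQ1 it stood at percentile 53.9 and 47.0. The locus thus went from among the more abundant lncRNA loci of LM3 to the middle of a list in which many loci are near 0.

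The level of LXLOC_019866 relative to LXLOC_019865 varied less between libraries in LM3 than in HepG2. LXLOC_019866 was at 0.807 and 0.756 of the FPKM of LXLOC_019865 in the LM3 vehicle libraries and at 0.688 and 0.774 in the JQ1 libraries. In HepG2 the ratio was 0.446 and 0.734 with vehicle and 1.28 and 1.25 with JQ1. The HepG2 JQ1 ratios rest on values of 0.16 to 0.23 FPKM. ENSG00000259621 was at 0.178 and 0.141 of LXLOC_019865 in the LM3 vehicle libraries and at 0 and 0.355 in the JQ1 libraries, where its values were 0 and 0.11 FPKM. In HepG2 this ratio was 0 and 0.211 with vehicle and 1.33 and 0.75 with JQ1.

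Library totals were not fully alike between treatments. Both JQ1 libraries of HepG2 had a higher FPKM total (31309 and 32765) than either vehicle library (30699 and 29369). For LM3 the totals of the 2 treatments overlapped. The FPKM of all loci summed to between 29369 and 32765 per library in HepG2 and between 34066 and 35742 in LM3. Pearson's r between replicates, across loci on the log2(FPKM + 0.5) scale, was 0.975 to 0.983. In limma, with Benjamini-Hochberg adjustment at 0.05, 25.1% of the tested loci were called in HepG2, 10.8% as higher with JQ1 (640 loci) and 14.2% as lower (840). In LM3 23.3% were called, 7.92% as higher (513 loci) and 15.4% as lower (998), a split that became 700 to 770 when library medians were set equal. A difference in change between the lines was called by limma for 0.218% of the loci tested in both (11 of 5035). The unadjusted limma p was under 0.05 for 604 of them. Of 12 hepatocyte and liver lncRNAs, 8 had values, and 4 reached 0.5 FPKM in HepG2 (H19, LINC01485, CPS1-IT1 and HULC) and 3 in LM3 (H19, CPS1-IT1 and HULC). Of 10 lncRNAs of other cell types, 8 had values, and LINC00926 and FENDRR reached it in each line. The summed FPKM of these 8 was 9.90 to 10.7 with vehicle and 4.07 to 4.25 with JQ1 in HepG2, and 5.22 to 6.09 and 3.03 to 3.10 in LM3. For the hepatocyte and liver list it was 2047 to 2258 with vehicle and 2104 to 2237 with JQ1 in HepG2, and 312 to 349 and 311 to 349 in LM3. Any part of these levels in the values of the antisense loci was not tested. HNF4A-AS1 was listed at 0 in every LM3 library.

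Around the locus, 16 further loci with values lay within 1 Mb, and 4 of them passed the filter in each line. AC118658.1 (ENSG00000278022) was the only one called, and only in LM3. That is 1 of 4 in LM3, against 23.3% over all tested loci, and 0 of 4 in HepG2, against 25.1%. It lies between exons 1 and 2 of IGF1R on the same strand as the gene (98660210 to 98660668), 11.7 kb beyond the IGF1R start and 220 kb from the antisense loci. In LM3 it fell from 8.75 and 8.22 FPKM with vehicle to 4.47 and 4.71 FPKM with JQ1, 54.1% of the vehicle mean (log2 change -0.82, SE 0.087, limma adjusted p = 0.0105). The call was lost on leaving out any 1 of the 4 libraries, as was every call in LM3, while its log2 change stayed between -0.86 and -0.78. In HepG2 it was at 1.89 and 1.23 FPKM with vehicle and 1.51 and 1.14 FPKM with JQ1 (log2 change -0.16, limma adjusted p = 0.593), and these groups overlapped. The change did not pass the test of a difference between the lines (-0.66, SE 0.24, unadjusted p = 0.0324, limma adjusted p = 0.373). AC118658.1 is the only locus measured inside IGF1R on the sense strand, and IGF1R mRNA itself was not analysed here. Whether sense reads from IGF1R had a part in the values of the antisense loci was not tested.

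The other 3 neighbours that passed were not called. LXLOC_019880, on the strand of LYSMD4, was at 0.88 and 0.66 FPKM with vehicle and 1.22 and 1.10 FPKM with JQ1 in HepG2 (log2 change 0.39, limma adjusted p = 0.0868), and at 1.16, 1.38, 1.44 and 1.42 FPKM in the same order in LM3 (0.13, adjusted p = 0.418). AC022819.1, on the strand of TTC23, was at 0.45 and 0.47 FPKM with vehicle and 0.54 and 0.60 FPKM with JQ1 in HepG2 (0.16, adjusted p = 0.352) and at 0.61, 0.62, 0.60 and 0.55 FPKM in the same order in LM3, where its log2 change was -0.053 (adjusted p = 0.772), or 0.030 with centred libraries. AC090825.1 had log2 changes of -0.10 and 0.052 in HepG2 and LM3 (adjusted p = 0.678 and 0.866). The median log2 change of the 4 neighbours was 0.027 in HepG2 and -0.00068 in LM3, against -0.0056 and -0.084 over all tested loci. Neither LXLOC_019880 nor AC022819.1 overlaps the antisense loci. The other 12 neighbours were below the filter and not tested, at 0.59 FPKM or less. In LM3, LINC03080 was at 0.44 and 0.59 FPKM with vehicle and 0.03 and 0.11 FPKM with JQ1. LUNAR1 was at 0.23, 0.41, 0.18 and 0.16 FPKM in the same order. TTC23-AS1 went the other way, at 0.21, 0.23, 0.41 and 0.37 FPKM. LINC01582 and AC015660.3 were also higher with JQ1 in LM3, at 0.05 FPKM or less.

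IRAIN (ENSG00000259424) is an antisense RNA known from the start of IGF1R and reported as imprinted. The interval measured for it (98646951 to 98647371, minus strand) lies just outside the gene. That interval is only part of the RefSeq span of IRAIN (98645863 to 98650787), which crosses the IGF1R start. The measured interval was low in every library, listed at 0 in 3 HepG2 libraries and at 0.08 FPKM in JQ1 replicate 1. In LM3 it was at 0.10 and 0.38 FPKM with vehicle and at 0.37 and 0.42 FPKM with JQ1. Its groups overlapped in both lines, and it was below the filter and not tested. The other 2 antisense loci with measured intervals that overlap IGF1R had almost no signal. ENSG00000287191 faces the same intron as LXLOC_019866 and was at most at 0.03 FPKM in HepG2, at 0.07 FPKM in both LM3 vehicle libraries and listed at 0 in both LM3 JQ1 libraries. SYNM-AS1, opposite the last exon of IGF1R, had 0.05 FPKM in LM3 vehicle replicate 2 and was listed at 0 elsewhere.

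Loci in a like arrangement, opposite the genes of receptor tyrosine kinases, gave few values. The list held 58 genes, IGF1R among them, and gave 13 loci with values besides the 3 members. SYNM-AS1 and ENSG00000287191, opposite IGF1R, were among the 13. Of the 13, 2 passed the filter in HepG2 and 3 in LM3, and limma called none of them. None had an unadjusted limma p under 0.05, against 2376 of 5906 tested loci in HepG2 and 2607 of 6474 in LM3. Over all tested loci limma called 25.1% and 23.3%, and so few loci cannot show how loci in this arrangement respond. ROR1-AS1, opposite the receptor gene ROR1, was at 0.99 and 0.79 FPKM with vehicle and 0.76 and 1.18 FPKM with JQ1 in HepG2 (log2 change 0.070, adjusted p = 0.803). In LM3 it was at 1.19, 1.21, 0.83 and 1.26 FPKM in the same order (-0.15, adjusted p = 0.530). LXLOC_000261, opposite the ephrin receptor gene EPHA2, had a log2 change of 0.19 in HepG2 (adjusted p = 0.304), and EPHA2-AS1, which overlaps it, -0.20 in LM3 (adjusted p = 0.404). The median log2 change was 0.13 in HepG2 and -0.15 in LM3.

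Over all other loci opposite a coding gene, limma called 193 higher and 275 lower of 1886 tested in HepG2 (median log2 change -0.017). In LM3 it called 142 higher and 290 lower of 1972 (median -0.096). The share called was 24.8% in HepG2 and 21.9% in LM3, against 25.1% and 23.3% over all tested loci. These medians are near those of all tested loci. The lowest log2 change among these antisense loci was -2.19 in LM3 and -1.71 in HepG2, where 6 of them were lower than LXLOC_019865.

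Of 23 lncRNAs listed for the insulin and insulin-like growth factor axis, 16 had values and 4 passed the filter in each line. IGFL2-AS1, named for IGFL2 of the IGF-like family, rose in HepG2 from 38.2 and 34.2 FPKM with vehicle to 57.4 and 54.6 FPKM with JQ1 (log2 change 0.62, SE 0.086, limma adjusted p = 0.0138). That call was lost on leaving out either JQ1 library (log2 change 0.59 and 0.66) and without the filter on low values (0.62). In LM3 it was at 10.5 and 10.1 FPKM with vehicle and 10.3 and 11.3 FPKM with JQ1 (0.067, adjusted p = 0.609), and the difference between the lines did not pass (-0.56, adjusted p = 0.198). GSK3B-DT, divergent from the gene of the kinase GSK3B, was at 1.93 and 2.35 FPKM with vehicle and 1.26 and 1.66 FPKM with JQ1 in LM3 (log2 change -0.43, adjusted p = 0.111) and had a log2 change of 0.30 in HepG2 (adjusted p = 0.225), a difference of -0.73 that did not pass either (adjusted p = 0.317). Limma called 1 of the 4 in HepG2, against 25.1% over all tested loci, and none of the 4 in LM3, against 23.3%. In LM3 1 of the 4 had an unadjusted limma p under 0.05, against 2607 of all 6474 tested loci. The median log2 change of the 4 was 0.16 in HepG2 and 0.034 in LM3.

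The loci most like the mean profile of the 3 were then sought among 5030 loci that passed in both lines and lay outside 1 Mb. Likeness was the root mean square difference over the 8 libraries from the mean of the 3, on the log2 scale, with the mean of the vehicle libraries of each line set to 0. The nearest was PAX8-AS1 on chromosome 2, antisense to the transcription factor gene PAX8, at 0.109. It was at 5.39 and 4.91 FPKM with vehicle and 0.96 and 0.78 FPKM with JQ1 in LM3, and at 0.80, 0.89, 0.36 and 0.36 FPKM in HepG2. The next loci with a symbol were AC124067.4 at 0.321, CEACAM16-AS1 at 0.325, AL139220.2 at 0.343, SBF2-AS1 at 0.345 and AC089983.1 at 0.353, against a median of 1.10 over all loci compared. Since nearer loci without a symbol were passed over, these ranked 8, 10, 12, 14 and 17 of 5030. These loci are described here as alike in values alone. The vehicle mean of these 5 in HepG2 ran from 1.12 FPKM (CEACAM16-AS1) to 7.40 FPKM (AL139220.2), and their log2 change in LM3 from -1.53 to -1.78 (the same 2 loci). LXLOC_019866 was itself at 0.206 from the mean of the 3, LXLOC_019865 at 0.464 and ENSG00000259621 at 0.634. LXLOC_019865 and ENSG00000259621 were thus further from that mean than every named locus. Likeness to the mean is therefore not likeness to each of the 3.

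**Figure D4:**
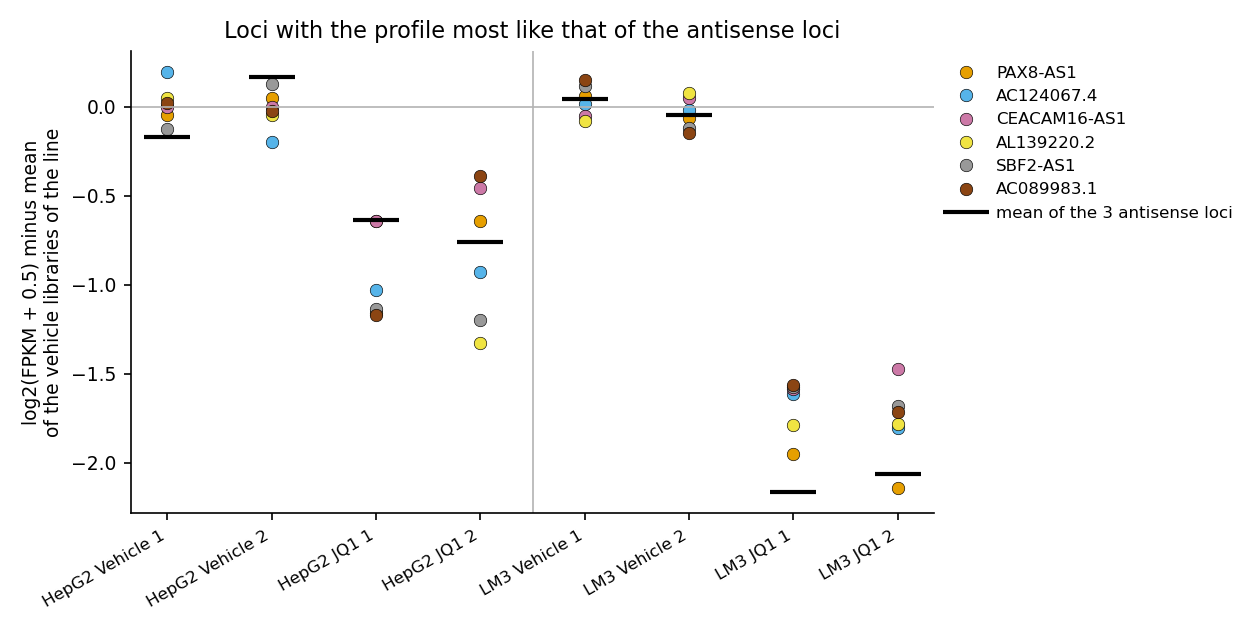
Log2(FPKM + 0.5) minus the mean of the vehicle libraries of the line (y axis) in each of the 8 libraries (x axis). Black bars are the mean of the 3 antisense loci and points the 6 loci with a symbol nearest to it. In the LM3 JQ1 libraries the bars stand at -2.17 and -2.06, and PAX8-AS1 is the point nearest to them.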

How the data were processed

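RNA of 8 libraries, 2 for each of 4 groups, was analysed from the deposited FPKM values, which the authors gave to 2 decimals in 1 table per line, per the file headers. Per the submitters' processing notes, hg19 and mm8 were among the builds and Bowtie 0.12.2 among the tools, with no role stated. The coordinates are those of GRCh38, since of 8453 Ensembl IDs with values found in GENCODE 29, 100% had the same chromosome, 83.9% the same start and 84.3% the same end. No counting tool or strand setting is given in the sources used here. Of 23161 loci, 7692 had a dash in place of values and were left out.

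JQ1 was compared with vehicle within each table in limma 3.58.1 (R 4.3.3, trend and robust) on log2(FPKM + 0.5) (two-sided tests). P-values were adjusted by Benjamini-Hochberg over those loci whose mean in the line reached 0.5 FPKM. The difference between lines was fitted over all 8 libraries. The fits within each line, but not that of the difference, were also run on simulated data with known changes. Tables and plots used matplotlib 3.10.9, NumPy 2.4.6 and pandas 2.3.3 in Python 3.11.15.

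Between 26.8% and 36.1% of the low values of a library came to within 0.1 of whole steps, where even spread gives 20%, so fragment counts were not recovered and no count model was run. Depth is unknown, and precision is read from replicate spread.

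Members and lists were chosen with earlier results of these data known. Neighbours named by rule were all those that passed within 1 Mb. Some neighbours below the filter were also named, outside this rule. From each list, in each line, up to 4 called loci with the smallest p were named, or the 2 with the smallest p where none was called, and by likeness the 6 nearest with a symbol. Alternatives were pseudocounts of 0.1 and 1, no filter, 2 other scalings, the replicate number as a block, each library left out, and limma without trend or robust fitting.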

Additional observations from a re-analysis of the deposited data

How the results depend on the processing

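The mean log2 difference of the 3 antisense loci was -0.70 in HepG2 and -2.11 in LM3. It was negative under every alternative but 1, that of ENSG00000259621 alone in HepG2 (0.13). In HepG2 it was -1.09 with a pseudocount of 0.1 and -1.42 for LXLOC_019865 alone, and ran from -0.87 to -0.53 on leaving out each library. In LM3 it was -3.19 and -1.59 with pseudocounts of 0.1 and 1, -1.99 after quantile normalization, and -2.67, -2.51 and -1.17 for LXLOC_019865, LXLOC_019866 and ENSG00000259621 alone, and ran from -2.17 to -2.06 on leaving out each library.

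Over all loci, limma called 1480 in HepG2 and 1511 in LM3, and 819 and 825 without the filter on low values. Leaving out each library gave 0 to 519 calls in HepG2 (0 without either JQ1 library, when the unadjusted p was under 0.05 for 1789 and 1714 loci) and 0 in every case in LM3, where 1605 to 2366 loci had an unadjusted p under 0.05. The difference between the lines gave 11 calls, 7 and 19 with pseudocounts of 0.1 and 1, 98 without the filter, 20 with centred libraries, 5 after quantile normalization, and 0 to 3 on leaving out each library. With the replicate number as a block, calls numbered 1453 in HepG2, 1215 in LM3 and 0 for the difference (505 at an unadjusted p under 0.05). Deviations of same-numbered libraries correlated at -0.035 in HepG2 and 0.13 in LM3, so the numbers were not taken as pairs.

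Without the filter, calls among neighbours were 1 in HepG2 and 2 in LM3 against 0 and 1, those opposite receptor tyrosine kinase genes were 1 in LM3 against 0, and those of the insulin and growth factor list 0 in HepG2 against 1. On leaving out each library, calls ran from 0 to 0 for the LM3 neighbours and from 0 to 1 for the HepG2 insulin and growth factor list. Changes that were not called turned sign for AC022819.1 in LM3 (0.030 with centred libraries and 0.059 after quantile normalization). On leaving out each library they turned sign for AC090825.1 (-0.30 to 0.092 in HepG2 and -0.17 to 0.27 in LM3), AC118658.1 in HepG2 (-0.40 to 0.070) and ROR1-AS1 (-0.14 to 0.28 in HepG2 and -0.35 to 0.050 in LM3). The cause was not tested. With FPKM alone, counting error at levels under 0.3 FPKM cannot be given.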
